A study of Homo sapiens with 24 samples.

Results

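The D-type cyclins, their partner kinase *CDK6*, and the CDK inhibitors were followed in 3 colorectal cancer (CRC) cell lines, HT29, HCT116, and SW480, in the presence and absence of β-CATENIN. The 10 genes were taken by name from the 58051 identifiers of the count tables: the D-type cyclins *CCND1*, *CCND2*, and *CCND3*, the kinase *CDK6*, the INK4 inhibitors *CDKN2A*, *CDKN2B*, and *CDKN2C*, and the CIP/KIP inhibitors *CDKN1A*, *CDKN1B*, and *CDKN1C*. All 10 were listed in each of the 24 libraries. From each line came 2 WT clones and 2 KO clones. In the KO clones, CRISPR/Cas9 had removed exon 7 from both copies of *CTNNB1*, the gene for β-CATENIN, whereas WT clones kept the exon. WT here means not edited. According to the paper, HCT116 has gain-of-function mutations in *CTNNB1* itself, and HT29 and SW480 have inactivating mutations in *APC*. The WT clones had gone through the same editing and single-cell cloning, so that each group stands for 2 single-cell clones of its line. By number, WT clones were 11 and 40 for HT29, 4 and 6 for HCT116, and 4 and 5 for SW480, and KO clones were 28 and 38, 44 and 47, and 17 and 21, in the same order. Round A and round B gave 1 library of every clone each, so that a line had 4 libraries per genotype, and the authors describe the SW480 KO clones as turning senescent on prolonged culture.

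D-type cyclins activate CDK4 and CDK6 early in G1 phase. The active kinases phosphorylate the retinoblastoma protein, which releases E2F factors to transcribe genes for DNA replication. INK4 proteins bind CDK4 and CDK6 and keep the cyclins away, whereas CIP/KIP proteins bind assembled complexes and block mainly CDK2. *CCND1* has long been listed among the targets of β-CATENIN and TCF/LEF factors, *CDKN1A* is a target of p53, and *CDKN2B* responds to TGF-β. *CDKN2A* encodes p16 and, from another first exon, p14ARF, and its counts hold both.

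All values are normalised read counts, that is reads per gene divided by a size factor of the library, and the size factors had been computed by the authors over all 24 libraries together (deposited and recomputed factors had a ratio of 1.00 in each line). The libraries held 22297049 to 29068378 reads on genes. *CTNNB1* itself, counted over the whole gene, checked the labels: it ranged from 5883 to 6113 in HT29 WT and from 256 to 337 in HT29 KO, from 10512 to 12800 in HCT116 WT and from 187 to 255 in HCT116 KO, and from 43114 to 50939 in SW480 WT and from 839 to 1312 in SW480 KO. Epithelial markers were present in every group (at least 6 of 7 with a mean of 10 or more). Of these, *CDX2* had means of 5.06 and 11.4 in HT29 WT and KO, and *VIL1* of 3.03 and 1.58 in HCT116 WT and KO. In SW480 WT and KO, *VIL1* had means of 17.8 and 8.92. *CDH1* was also low there, with 55.6 and 44.0, against 8179 in HT29 WT and 1481 in HCT116 WT. *PTPRC* and *CD3E*, which define leukocytes, had no mean above 3.65 in any group. Some other markers of non-epithelial cells were higher. *CD14* had means of 160 and 139 in HT29 WT and KO, and *COL1A1* of 346 and 333 in HCT116 WT and KO. In SW480 KO, *CD14* had a mean of 172, *VWF* of 161, and *COL1A1* of 132. In bulk RNA, fewer cells with a transcript and less transcript per cell cannot be told apart. A member is called changed at an adjusted p under 0.05 in limma (Benjamini-Hochberg over all genes tested), and a DEG also has an absolute log2 fold change over 1. The 4 libraries of a group come from 2 clones, so that p-values rest partly on the spread between rounds of a clone.

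The regions upstream of the INK4 genes and *CDKN1B* are shown because these are the inhibitors that rose in HCT116 or SW480 KO clones. RefSeq windows on GRCh38.p14, another build than the GRCh37 of the counts, were found for 7 of the 10 members, with 13 start sites in all, and *CCND1*, *CCND2*, and *CDKN1C* had none. Each line gives the 250 bases before a start site, 5′ to 3′ on the strand of the gene, and capitals mark matches on either strand to CTTTGAT (TCF/LEF), CACGTG (E-box), GGGCGG (GC box), or TGACGT (part of a cAMP response element).
*CDKN2B*, chr9:22009306-22009555, minus strand: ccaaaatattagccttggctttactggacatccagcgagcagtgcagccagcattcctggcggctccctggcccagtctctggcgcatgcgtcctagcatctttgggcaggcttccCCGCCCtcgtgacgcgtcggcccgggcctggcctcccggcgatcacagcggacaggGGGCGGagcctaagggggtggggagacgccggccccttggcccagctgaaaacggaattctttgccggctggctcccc
*CDKN2A*, distal start (p14ARF), chr9:21995325-21995574, minus strand: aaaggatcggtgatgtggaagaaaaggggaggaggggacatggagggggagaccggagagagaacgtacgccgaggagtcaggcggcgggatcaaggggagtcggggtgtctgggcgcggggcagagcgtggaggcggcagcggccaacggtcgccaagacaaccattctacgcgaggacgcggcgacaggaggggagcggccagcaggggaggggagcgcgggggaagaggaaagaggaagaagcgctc
*CDKN2A*, proximal start (p16), chr9:21974858-21975107, minus strand: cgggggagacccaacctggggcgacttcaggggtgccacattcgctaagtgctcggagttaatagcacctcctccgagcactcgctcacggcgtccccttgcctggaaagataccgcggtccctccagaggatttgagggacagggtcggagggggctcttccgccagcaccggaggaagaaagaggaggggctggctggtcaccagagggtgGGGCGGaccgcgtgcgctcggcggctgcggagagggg
*CDKN2C*, first start, chr1:50960495-50960744, plus strand: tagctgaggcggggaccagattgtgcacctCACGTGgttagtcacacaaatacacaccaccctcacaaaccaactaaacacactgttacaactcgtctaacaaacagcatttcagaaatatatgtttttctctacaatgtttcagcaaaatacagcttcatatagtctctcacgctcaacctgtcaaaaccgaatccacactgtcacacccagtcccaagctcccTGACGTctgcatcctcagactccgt
*CDKN2C*, middle start, chr1:50968456-50968705, plus strand: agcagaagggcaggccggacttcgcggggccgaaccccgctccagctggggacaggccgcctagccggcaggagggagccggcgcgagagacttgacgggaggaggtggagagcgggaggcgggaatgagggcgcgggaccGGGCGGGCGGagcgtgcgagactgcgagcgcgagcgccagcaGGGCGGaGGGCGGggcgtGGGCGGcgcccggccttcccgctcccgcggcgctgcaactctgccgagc
*CDKN2C*, last start, chr1:50969995-50970244, plus strand: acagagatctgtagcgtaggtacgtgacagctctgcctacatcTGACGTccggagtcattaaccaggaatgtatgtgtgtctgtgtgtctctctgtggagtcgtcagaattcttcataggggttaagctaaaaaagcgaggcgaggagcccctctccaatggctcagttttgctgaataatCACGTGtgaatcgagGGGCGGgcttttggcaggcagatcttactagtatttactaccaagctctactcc
*CDKN1B*, chr12:12717118-12717367, plus strand: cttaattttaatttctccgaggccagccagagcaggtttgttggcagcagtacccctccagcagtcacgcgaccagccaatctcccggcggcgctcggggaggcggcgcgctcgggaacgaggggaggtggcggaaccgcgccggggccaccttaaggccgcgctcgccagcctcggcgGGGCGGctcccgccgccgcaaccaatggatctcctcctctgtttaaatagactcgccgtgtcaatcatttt
The TCF/LEF letters were in none of the 13 windows, and 2.26% of all 35116 windows of this length hold them. A GC box lay in 9 of the 13 windows against 42.6% of all windows, with 5 matches, some of them overlapping, before the middle *CDKN2C* start and 2 before *CDKN2B*. E-box letters were found before the first and the last *CDKN2C* start (6.34% of all windows), and both of these windows also held TGACGT (7.10% of all windows), as did 1 *CDK6* window. These are matches of letters in a short window and say nothing of binding.

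In the WT clones the lines differed in which D-type cyclin and which inhibitor they carried. Levels of different genes are given here per kb of exon, as normalised count per kb, mean ± SD of 4 libraries. In SW480 WT, *CCND1* stood at 8582 ± 771 per kb, *CCND3* at 635 ± 50.9, and *CCND2* at 27.7 ± 20.8. In HCT116 WT, *CCND1* stood at 4522 ± 1144 per kb and *CCND3* at 267 ± 72.4. In HT29 WT, *CCND1* stood at 865 ± 117 per kb and *CCND3* at 413 ± 17.8. *CCND1* thus made up 92.8% ± 0.432 of the D-type cyclin signal per kb in SW480 WT, 94.0% ± 2.77 in HCT116 WT, and 67.5% ± 3.89 in HT29 WT, where *CCND3* supplied the other 32.5% ± 3.89.

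*CCND2* was nearly confined to SW480. It had 0 reads in all 8 HT29 libraries, where 3 reads per library would correspond to a mean normalised count of 3.16 in WT. It had at most 5 reads in any HCT116 library, whereas the SW480 WT libraries counted 72.8, 95.6, 299, and 418. The SW480 WT mean was therefore at least 70.0-fold higher than in HT29 WT.

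Among the inhibitors, *CDKN2A* had the highest level per kb of all 10 members in HT29 WT (1323 ± 280), with *CDKN1A*, which encodes p21 at 46.4 ± 20.8. In HCT116 WT *CDKN1A* was above *CDKN2A*, with *CDKN1A* next to *CCND1* at 2066 ± 1186 per kb and *CDKN2A* at 481 ± 72.1. No *CDKN1A* library overlapped with a *CDKN2A* library there. In SW480 WT, *CDKN1A* stood at 1068 ± 89.7 per kb and *CDKN2A* at 511 ± 35.2. *CDKN1C*, which encodes p57, lay at 62.8 ± 11.9 per kb in SW480 WT, 25.4 ± 4.56 in HCT116 WT, and 22.9 ± 11.8 in HT29 WT. The HCT116 and HT29 values differed by less than their spread. Neighbours in the order of levels overlapped between libraries throughout HT29 WT, apart from *CCND1* over *CCND3* and *CDKN1C* over *CCND2*. In HCT116 WT the run *CCND3*, *CDK6*, *CDKN1B*, *CDKN2C* overlapped from each gene to the next, and in SW480 WT only *CDK6* with *CDKN2B* and *CDKN1C* with *CCND2* did.

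**Figure D1:**
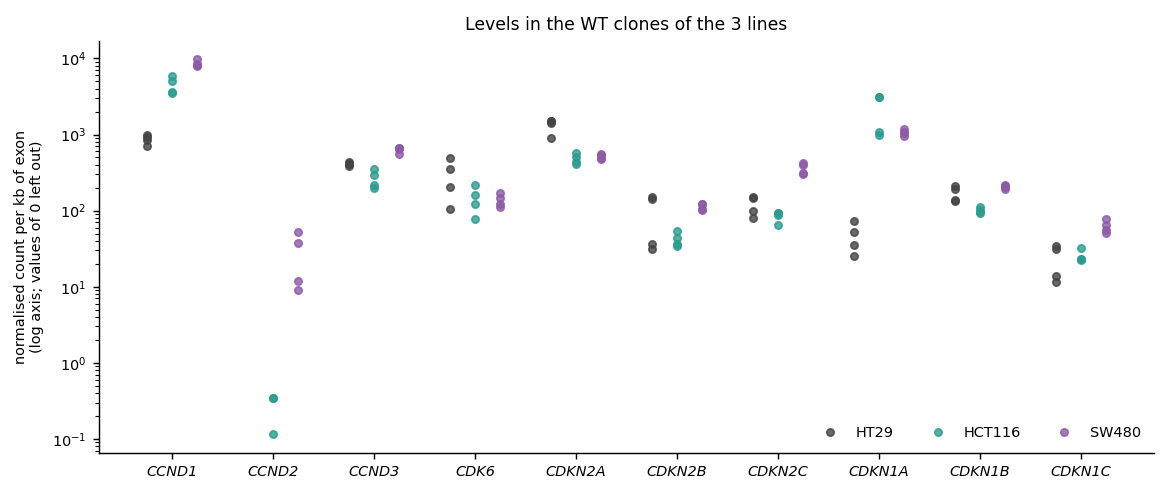
Normalised count per kb of exon (log axis) of the 10 genes in the 4 WT libraries of each line, 1 point per library, with values of 0 left out. *CCND1* and *CDKN1A* were lowest in HT29, and *CCND2* reached more than a few reads only in SW480.

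Each gene was then compared between WT clones of the lines, in a fit of all 24 libraries. Against HT29 WT, 5 of 10 members differed in HCT116 WT, where 58.4% of all 18609 genes tested differed (31.3% higher and 27.1% lower). *CCND1* was higher in HCT116 (log2 difference 2.36, SE 0.24, adjusted p = 1.17e-08), as was *CDKN1A* (5.37, SE 0.33, adjusted p = 3.06e-12). *CDKN2A* (−1.44), *CDKN1B* (−0.71), and *CCND3* (−0.67) were lower.

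Between SW480 WT and HT29 WT, 7 of 10 members differed, against 60.3% of all genes (34.4% higher and 25.8% lower). *CCND1* (3.32), *CDKN1A* (4.62), *CDKN2C* (1.63), *CDKN1C* (1.58), *CCND3* (0.62), and *CCND2* were higher in SW480, and *CDKN2A* (−1.35) was lower. Between SW480 WT and HCT116 WT, 7 of 10 members differed, against 60.5% of all genes (32.5% higher and 28.0% lower), and all 7 were higher in SW480: *CCND2*, *CDKN2C* (2.09), *CDKN2B* (1.43), *CCND3* (1.29), *CDKN1C* (1.29), *CDKN1B* (1.03), and *CCND1* (0.95). The shares of members that differed were thus near those of all genes. In both comparisons with SW480, *CCND2* is among the 7, but it passed the filter of this fit only through its SW480 libraries. Those are the libraries where it is high, so that its calls carry no weight of their own. Several of these calls rested on single clones. *CCND3* lost both calls against HT29 WT with the clones' reads summed (adjusted p = 0.13 for HCT116 and 0.171 for SW480), and the HCT116 difference was −0.35 (adjusted p = 0.26) without HCT116 WT 6. *CDKN1C* lost its call against HT29 WT (0.0537) and HCT116 WT (0.101) when clones were summed, as did *CDKN2B* against HCT116 WT (0.115), and the *CDKN1C* difference from HT29 was 0.90 (adjusted p = 0.104) without HT29 WT 40. *CCND1* in SW480 over HCT116 was 0.65 (adjusted p = 0.0589) without HCT116 WT 4.

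*CDK6* did not pass the test in any pair of lines (adjusted p = 0.175, 0.176, and 0.996), with SEs of 0.54.

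KO clones differed from WT clones in 0 of 9 tested members in HT29, 2 of 9 in HCT116, and 7 of 10 in SW480, by limma. Over all tested genes, the shares were 2.56% in HT29 (2.08% higher and 0.476% lower), 14.0% in HCT116 (8.05% and 5.93%), and 48.1% in SW480 (26.1% and 22.1%). Both HCT116 changes were rises, and SW480 had 4 rises and 3 falls. DEGs numbered 0, 1, and 4 among the members, against 2.30%, 5.06%, and 17.5% of all genes. Members had a median log2 fold change of −0.14, 0.44, and 0.25 in HT29, HCT116, and SW480, beside 0.03, −0.01, and −0.0042 over all genes. In HT29, 3 members had an unadjusted p under 0.05. There, edgeR called 0 members and DESeq2 called 2, *CCND1* and *CDKN1A*. *CCND2* had too few reads to be tested in HT29 and HCT116.

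**Figure D2:**
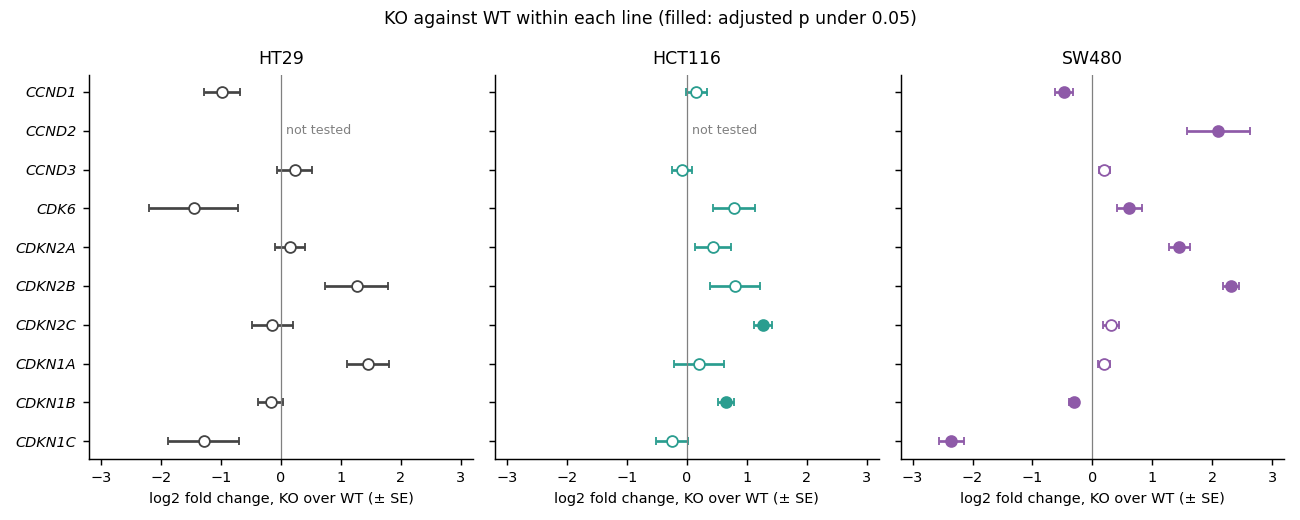
Log2 fold change of KO over WT for each gene within HT29, HCT116, and SW480, with bars of 1 SE and filled points where the adjusted p was under 0.05. *CDKN2B* (2.31) and *CDKN1C* (−2.36) in SW480 lie farthest from 0 among the called values, and no HT29 point is filled.

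**Figure D3:**
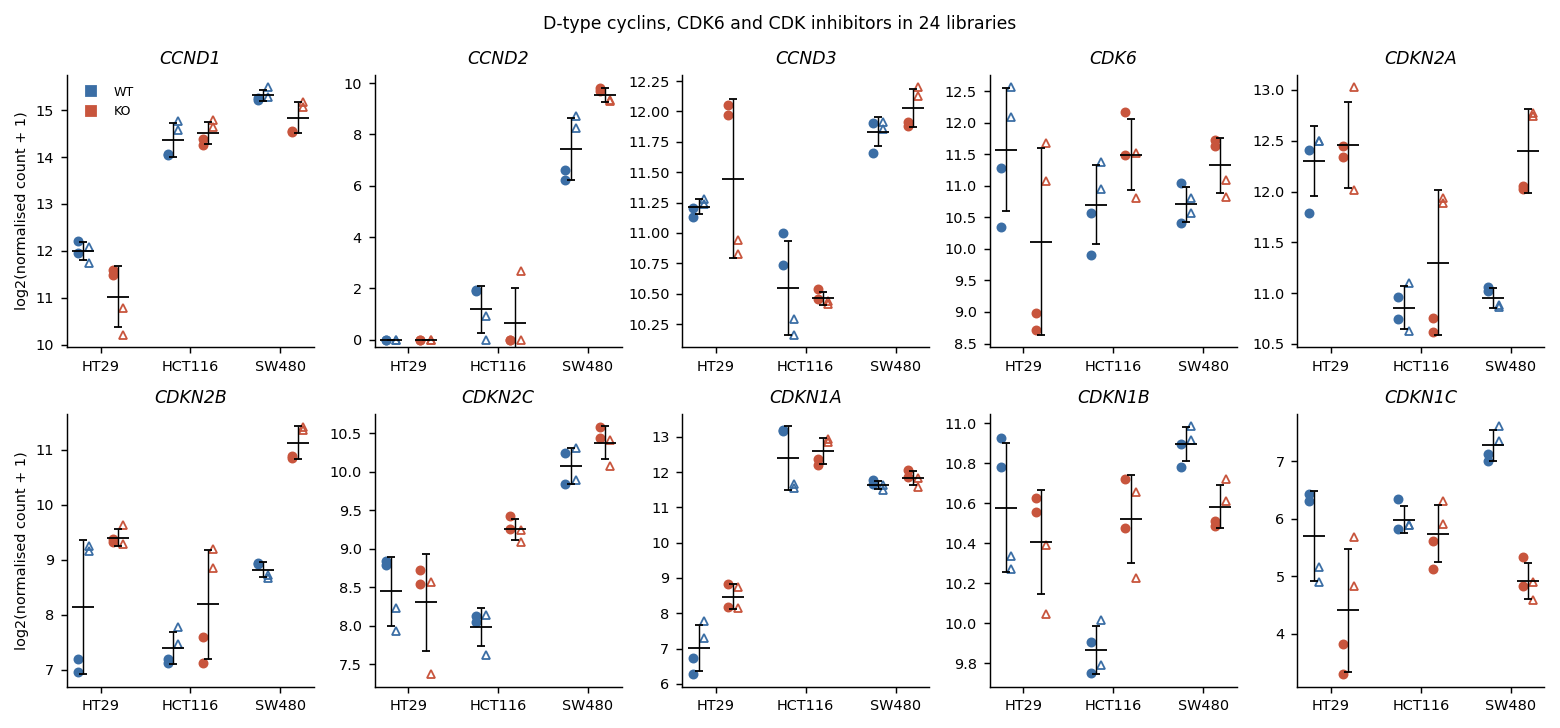
Log2 of the normalised count plus 1 of each gene in all 24 libraries, with WT in blue and KO in red. Circles are the clone with the lower number and triangles the other clone of a group, and black bars give mean ± SD of 4 libraries. In SW480 the KO libraries of *CDKN2A* and *CDKN2B* lie above all WT libraries, and in HCT116 those of *CDKN2C* do.

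*CCND1* (chr11:69455924-69469242, plus strand, GRCh37) fell in SW480 and did not pass the test elsewhere. In the libraries of SW480, given by clone and within a clone as rounds A and B, it counted 39191, 38027, 39992, and 46234 in WT 4 and WT 5, and 24268, 23837, 34602, and 36822 in KO 17 and KO 21. All KO libraries lay below all WT libraries, and those of KO 17 were the lowest. The log2 fold change was −0.48 (SE 0.15, adjusted p = 0.0219). The call was lost, with an adjusted p of 0.157, when the reads of each clone were summed. It was also lost without KO 17A (0.0553), KO 17B (0.0526), WT 5B (0.0618), or either WT clone, and without clone KO 17 the change was −0.19 (adjusted p = 0.0899). *LTO1*, which overlaps *CCND1* on the other strand and shares 497 exon bases with it (10.4% of its exons), fell as well, by 0.26 on the log2 scale.

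In HT29, *CCND1* counted 4706, 3988, 4367, and 3405 in WT 11 and WT 40, and 2883, 3087, 1766, and 1179 in KO 28 and KO 38. The groups did not overlap, as for 3 of 9 members and 13.0% of all genes, and the log2 fold change was −0.98 (SE 0.30, adjusted p = 0.145). Clone KO 38 was lower than KO 28 (log2 difference −1.05, SE 0.24, adjusted p = 0.0241). In HCT116, *CCND1* counted 17068, 16904, 27864, and 24291 in WT 4 and WT 6, and 21487, 19688, 25548, and 28332 in KO 44 and KO 47. The groups overlapped widely, with a log2 fold change of 0.16 (SE 0.17, adjusted p = 0.583), and WT 6 exceeded WT 4 by 0.62 (adjusted p = 0.0224).

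*CCND2* (chr12:4378937-4414519, plus strand) rose in SW480 KO clones. It counted 72.8, 95.6, 299, and 418 in WT 4 and WT 5, and 824, 895, 623, and 650 in KO 17 and KO 21. Every KO library was above every WT library, and the WT clones differed by 2.07 on the log2 scale (SE 0.16, adjusted p = 1.30e-06). The log2 fold change was 2.10 (SE 0.52, adjusted p = 0.00983). It was 3.13 without WT 5 and 1.06 without WT 4, and it did not pass the test with the clones' reads summed (adjusted p = 0.0815) or without clone KO 17 (0.105) or KO 21 (0.079). An unnamed protein-coding gene on the same strand shares 12.5% of the exon bases of *CCND2* in the annotation used here, and whether reads there were counted is not given in the sources used here.

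*CCND3* (chr6:41902672-42018095, minus strand) did not pass the test in any line, with log2 fold changes of 0.23 in HT29 (SE 0.29, adjusted p = 0.714), −0.09 in HCT116 (SE 0.17, adjusted p = 0.776), and 0.19 in SW480 (SE 0.09, adjusted p = 0.106). The HT29 KO clones went apart: KO 28 counted 4252 and 4004, KO 38 counted 1814 and 1965, and the WT libraries ranged from 2247 to 2488. KO 28 was thus above and KO 38 below all WT libraries (KO 38 over KO 28 −1.13, SE 0.16, adjusted p = 0.00299). *CCND1* made up 67.5% ± 3.89 of the D-type cyclin signal per kb in HT29 WT and 47.4% ± 5.15 in HT29 KO, with lowest and highest values of 62.3% and 71.7% in WT and of 42.0% and 54.1% in KO. In SW480 the *CCND2* share was 0.289% ± 0.198 in WT and 1.40% ± 0.524 in KO.

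*CDK6* (chr7:92234235-92465887, minus strand), the kinase partner of the D-type cyclins, differed between clones of 1 genotype in HT29 and SW480. In HT29 it counted 2500, 1300, 6060, and 4371 in WT 11 and WT 40, and 420, 507, 3270, and 2165 in KO 28 and KO 38. KO 28 was far below the other 3 clones, KO 38 overlapped with WT, and the log2 fold change of −1.46 (SE 0.73) had an adjusted p of 0.365. KO 38 exceeded KO 28 by 2.52 (SE 0.35, adjusted p = 0.00289), and WT 40 exceeded WT 11 by 1.51 (SE 0.35, adjusted p = 0.0358). In SW480 it counted 1360, 2104, 1516, and 1797 in WT 4 and WT 5, and 3399, 3183, 1815, and 2186 in KO 17 and KO 21.

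The SW480 values overlapped between KO 21 and WT, and the log2 fold change was 0.61 (SE 0.21, adjusted p = 0.0346). This call was lost in 11 of 23 alternatives. Among these were the clones' reads summed (adjusted p = 0.128), a filter of at least 1 count in 1 library (0.0789), and leaving out KO 17A (0.0859), KO 17B (0.0861), WT 4A (0.0927), WT 5A (0.0801), or WT 5B (0.0523). Without clone KO 17 the change was 0.25 (adjusted p = 0.246). In HCT116 the log2 fold change of *CDK6* was 0.79 (SE 0.35, adjusted p = 0.168), with an adjusted p of 0.0492 in DESeq2.

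The INK4 inhibitors carried the changes with the smallest p-values among the genes that rose. *CDKN2B* (chr9:22002902-22009304, minus strand), which encodes p15, counted 491, 484, 406, and 422 in SW480 WT 4 and WT 5, and 1840, 1896, 2618, and 2721 in KO 17 and KO 21. All KO libraries were above all WT libraries, and KO 21 was above KO 17. The log2 fold change was 2.31 (SE 0.14, adjusted p = 4.52e-07) and stayed called with the clones' reads summed (adjusted p = 0.00158). The lowest and the highest change over the 23 alternatives were 2.05 and 2.57.

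*CDKN2A* (chr9:21967751-21995300, minus strand) lies 7602 bases from *CDKN2B* and moved with it in SW480. It counted 2134, 2068, 1884, and 1855 in WT 4 and WT 5, and 4166, 4265, 6978, and 6849 in KO 17 and KO 21. KO and WT did not overlap, as for 6 of 10 members and 46.2% of all genes in SW480, and the log2 fold change was 1.45 (SE 0.17, adjusted p = 9.03e-05). With the clones' reads summed, the adjusted p was 0.0114. The rise was larger in KO 21 (1.80) than in KO 17 (1.09), and the difference of 0.71 between these clones exceeded the spread between rounds (SE 0.07, adjusted p = 1.61e-06).

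In HCT116 the rise at this locus was seen in 1 of the 2 KO clones. *CDKN2B* counted 138, 146, 176, and 217 in WT 4 and WT 6, 138 and 192 in KO 44, and 460 and 586 in KO 47. *CDKN2A* counted 1992, 1711, 1575, and 2199 in WT, 1563 and 1729 in KO 44, and 3789 and 3921 in KO 47. KO 44 overlapped with WT for both genes, and KO 47 was above all WT libraries for both.

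Against both WT clones, KO 47 differed by 1.64 for *CDKN2B* (SE 0.19, adjusted p = 0.00027) and by 1.06 for *CDKN2A* (SE 0.14, adjusted p = 0.000652), and KO 44 by −0.03 and −0.17 (adjusted p = 0.912 and 0.396). The error of these clone values is the spread between rounds alone. Over both KO clones, the log2 fold changes were 0.80 (SE 0.42, adjusted p = 0.235) for *CDKN2B*, which DESeq2 called (1.03, adjusted p = 0.0339), and 0.44 (SE 0.30, adjusted p = 0.374) for *CDKN2A*.

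In HT29, *CDKN2B* separated the WT clones. WT 11 counted 146 and 124, WT 40 counted 606 and 566, and the KO libraries counted 637, 659, 791, and 625. All KO libraries were above all WT libraries, but WT 40 exceeded WT 11 by 2.12 on the log2 scale (SE 0.21, adjusted p = 0.00069). The log2 fold change of KO over WT was 1.26 (SE 0.52, adjusted p = 0.277), 2.32 (adjusted p = 0.00655) without WT 40, and 0.20 (adjusted p = 0.656) without WT 11. *CDKN2A* had a log2 fold change of 0.16 in HT29 (SE 0.25, adjusted p = 0.777).

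At the *CDKN2A* and *CDKN2B* locus, the antisense transcript *CDKN2B-AS1*, which is known for a role in silencing its neighbours, rose in SW480 KO clones, from 18.3 ± 6.02 to 47.6 ± 12.1 (log2 fold change 1.34, SE 0.28, adjusted p = 0.00285). It shares 593 exon bases with *CDKN2A* (15.3% of its exons) on the opposite strand and none with *CDKN2B*. The library kit does not mark the strand, so that reads in the shared bases cannot be told apart. *MTAP*, the next protein-coding gene, which salvages methionine, rose by 0.29 in SW480 (adjusted p = 0.0192) and fell by 0.74 on the log2 scale in HCT116 (adjusted p = 0.0149).

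*CDKN2C* (chr1:51426417-51440306, plus strand), which encodes p18, was the DEG among the members in HCT116. It counted 277, 263, 195, and 281 in WT 4 and WT 6, and 608, 684, 542, and 606 in KO 44 and KO 47. All KO libraries were above all WT libraries, as for 2 of 9 members and 20.5% of all genes in HCT116. The log2 fold change was 1.27 (SE 0.15, adjusted p = 0.000283), with 1.36 in KO 44 and 1.19 in KO 47.

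This call held in all 24 alternatives, with an adjusted p of 0.0138 where the clones' reads were summed. A long non-coding gene on the opposite strand shares 617 exon bases with *CDKN2C* (20.4% of its exons) in the annotation used here. In HT29, *CDKN2C* counted 441, 457, 242, and 298 in WT and 422, 372, 164, and 380 in KO (log2 fold change −0.14, adjusted p = 0.862). In SW480, the log2 fold change was 0.30 (SE 0.13, adjusted p = 0.0864). The remaining INK4 gene, *CDKN2D*, which encodes p19, rose in HCT116 from 231 ± 34.3 to 363 ± 69.2 (0.65, adjusted p = 0.0278) and in SW480 from 187 ± 21.4 to 284 ± 31.1 (0.60, adjusted p = 0.00291).

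Among the CIP/KIP inhibitors, *CDKN1B* (chr12:12838432-12875303, plus strand), which encodes p27, moved in opposite directions in HCT116 and SW480. In HCT116 it counted 860, 958, 884, and 1035 in WT 4 and WT 6, and 1425, 1685, 1198, and 1614 in KO 44 and KO 47. The groups did not overlap, and the log2 fold change was 0.66 (SE 0.13, adjusted p = 0.00653). It did not pass the test with the clones' reads summed (adjusted p = 0.0816) or without clone KO 44 (0.0518).

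In SW480, *CDKN1B* counted 1908, 1761, 2026, and 1930 in WT 4 and WT 5, and 1434, 1457, 1563, and 1687 in KO 17 and KO 21. KO was below WT in every library, and the log2 fold change was −0.31 (SE 0.07, adjusted p = 0.00595), with an adjusted p of 0.125 for the clones' reads summed and 0.0652 without clone WT 5. The KO effect differed between SW480 and HCT116 by −0.97 (SE 0.21, adjusted p = 0.00244), a difference that was called in 34 of 35 alternatives. In HT29, *CDKN1B* counted 1760, 1945, 1233, and 1293 in WT and 1506, 1578, 1057, and 1344 in KO, overlapping groups with a log2 fold change of −0.17 (SE 0.21, adjusted p = 0.70). *SKP2*, the F-box protein that marks p27 for degradation, fell by 0.66 on the log2 scale in HCT116 (2465 ± 152 in WT and 1571 ± 250 in KO). *FOXO1*, a transcription factor upstream of *CDKN1B*, rose by 0.95 there and fell by 0.89 on the log2 scale in SW480. SKP2 acts on the p27 protein, which was not measured here, and a link of either gene to the *CDKN1B* counts was not tested.

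*CDKN1C* (chr11:2904443-2907005, minus strand) fell in SW480 further than any other member. It counted 138, 128, 194, and 162 in WT 4 and WT 5, and 39.5, 27.5, 28.9, and 23.0 in KO 17 and KO 21. All KO libraries were below all WT libraries, with a log2 fold change of −2.36 (SE 0.21, adjusted p = 6.93e-06) that stayed called in all 23 alternatives, also with the clones' reads summed (adjusted p = 0.00346). In HT29, *CDKN1C* counted 85.5, 78.1, 34.6, and 28.8 in WT and 13.1, 8.81, 27.5, and 50.6 in KO, groups that overlapped (−1.29, SE 0.59, adjusted p = 0.322). In HCT116, the log2 fold change was −0.24 (SE 0.27, adjusted p = 0.597).

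*CDKN1A* (chr6:36644237-36655114, plus strand) did not pass the test in any line. HT29, which has low *CDKN1A*, counted 106, 76.0, 218, and 157 in WT 11 and WT 40, and 450, 291, 427, and 280 in KO 28 and KO 38. All KO libraries were above all WT libraries, and both KO clones differed from WT by a like amount (1.48 in KO 28 and 1.42 in KO 38, SE 0.29 each). The log2 fold change was 1.45 (SE 0.35, adjusted p = 0.0698), with adjusted p = 0.00619 in DESeq2, 0.0382 in limma without clone WT 40 (1.97), 0.219 without clone WT 11 (0.93), and 0.734 with the clones' reads summed. WT 40 and WT 11 differed by 1.04 (SE 0.34, adjusted p = 0.114).

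In HCT116, the WT clones differed from each other more than the genotypes did for *CDKN1A*. WT 4 counted 9316 and 9218, WT 6 counted 3230 and 2997, and the KO libraries lay between them at 4717, 5281, 7441, and 7906. The difference of WT 6 from WT 4 was −1.57 (SE 0.11, adjusted p = 7.11e-05). KO over WT was 0.20 (SE 0.42, adjusted p = 0.792), and it was 0.99 (adjusted p = 0.0196) without WT 4 and −0.58 (adjusted p = 0.155) without WT 6. In SW480, the log2 fold change of *CDKN1A* was 0.19 (SE 0.10, adjusted p = 0.152).

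**Figure D4:**
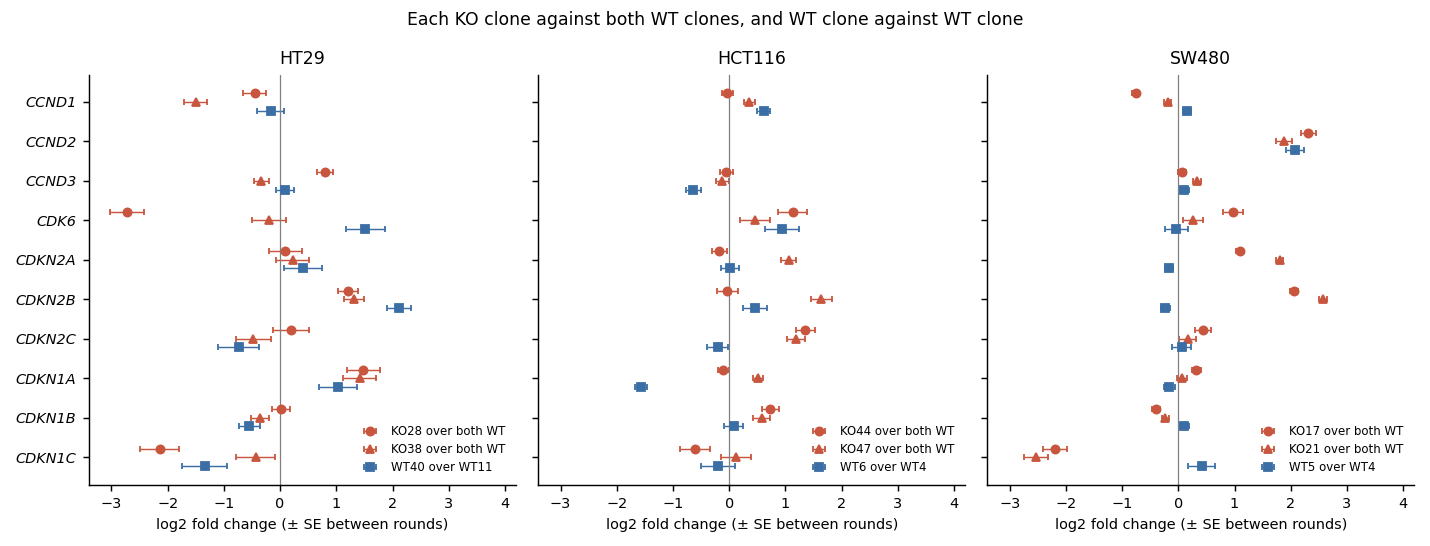
Log2 fold change of each KO clone over the mean of both WT clones (red) and of WT clone over WT clone (blue), with bars of 1 SE that reflect the spread between rounds. In HCT116 the KO 47 values of *CDKN2A* (1.06) and *CDKN2B* (1.64) stand apart from those of KO 44, and in HT29 the WT difference of *CDKN2B* (2.12) exceeds both KO values.

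By clone, against both WT clones of the line, KO 28 differed in 5 and KO 38 in 3 of 9 members in HT29 (11.5% and 21.4% of all genes), KO 44 in 3 and KO 47 in 6 of 9 in HCT116 (26.2% and 16.2%), and KO 17 in 9 and KO 21 in 7 of 10 in SW480 (54.7% and 59.8%). The WT clones of a line differed from each other in 2 members in HT29 (9.02% of all genes), 3 in HCT116 (2.61%), and 1 in SW480 (8.88%). The KO clones of a line differed in 4 members in HT29 (16.0% of all genes), 3 in HCT116 (7.16%), and 5 in SW480 (28.0%). *CDKN1A* and *CDKN2B* were higher in both HT29 KO clones, *CDKN1B* and *CDKN2C* in both HCT116 KO clones, and *CCND2*, *CDKN2A*, and *CDKN2B* in both SW480 KO clones. Lower in both SW480 KO clones, KO 17 given before KO 21, were *CCND1* (−0.76 and −0.19), *CDKN1B* (−0.40 and −0.23), and *CDKN1C* (−2.19 and −2.53).

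Whether a KO effect differed between lines was tested directly. Between HCT116 and HT29, the effects differed for *CDKN2C* (1.41, SE 0.34, adjusted p = 0.0123), *CDKN1B* (0.83, SE 0.21, adjusted p = 0.0163), and *CCND1* (1.14, SE 0.33, adjusted p = 0.0393), that is for 3 of 10 members and 7.25% of all genes. Between SW480 and HT29, the effect differed for *CDKN2A* (1.29, SE 0.38, adjusted p = 0.0233), 1 of 10 members against 15.8% of all genes. Between SW480 and HCT116, it differed for *CDKN1B* (above), *CDKN1C* (−2.11, SE 0.58, adjusted p = 0.0171), and *CCND2* (2.62, SE 0.80, adjusted p = 0.0318), 3 of 10 members against 13.2% of all genes.

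The *CCND2* value sets SW480 against HCT116 libraries with at most 5 reads, so that its size depends on the pseudocount. *CCND2* also passed the filter of this fit only through its SW480 libraries, where it is high, so that its call carries no weight of its own. With the reads of each clone summed, none of these 7 differences passed the test (adjusted p from 0.173 to 0.464). The *CCND1* difference was lost in edgeR (adjusted p = 0.0597) and without any 1 of the libraries HCT116 KO 44A, KO 47A, KO 47B, WT 4A, or WT 4B, or HT29 KO 38A, KO 38B, WT 11A, or WT 40A, and it was 0.62 (adjusted p = 0.151) without HT29 KO 38. The *CCND2* difference was lost in 20 of 34 alternatives. Among these were DESeq2 (adjusted p = 0.393), edgeR (0.428), a pseudocount of 0.1 (0.117), and leaving out any 1 of the libraries HCT116 KO 44A, KO 44B, KO 47B, WT 4A, or WT 4B, or SW480 KO 17A, KO 17B, WT 4A, or WT 4B. It was also lost without clone HCT116 KO 44, HCT116 WT 4, SW480 KO 17, or SW480 KO 21, and it was 1.59 (adjusted p = 0.282) without SW480 WT 4. The *CDKN2A* difference was lost without SW480 KO 21A (0.0545), SW480 KO 21B (0.0544), or HT29 KO 38A (0.0528), or without clone SW480 KO 21, SW480 WT 4, SW480 WT 5, or HT29 WT 40. The *CDKN2C* difference was lost without clone HCT116 KO 44, HCT116 WT 6, or HT29 WT 11, the *CDKN1B* difference from HT29 without HCT116 KO 44, HCT116 WT 4, or HT29 WT 11, and the *CDKN1C* difference without HCT116 KO 47, HCT116 WT 6, SW480 KO 21, or SW480 WT 5. For *CDKN2B*, called by limma in SW480 and not in HT29 or HCT116, the effects of SW480 and HT29 differed by 1.05 (SE 0.62, adjusted p = 0.284) and those of SW480 and HCT116 by 1.51 (SE 0.62, adjusted p = 0.122).

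Genes that work with or downstream of these members were counted from lists of their pathways. As a background to the counts below, falls made up 22.1% of all tested genes for SW480, 5.93% for HCT116, and 0.476% for HT29. Rises made up 26.1%, 8.05%, and 2.08%, with the lines again taken from SW480 to HT29. Of 6 G1 kinases, E and A cyclins, and their activator *CDC25A*, none changed in HT29, *CCNE1*, which drives CDK2 at S phase entry, fell by 0.94 on the log2 scale in HCT116, and *CDC25A* (−0.56) and *CDK4* (−0.46) fell in SW480. Of 13 retinoblastoma family, E2F, and DP genes, 0 changed in HT29, 2 fell in HCT116 (*E2F5* −0.61, *TFDP2* −0.60), and 2 fell in SW480 (*E2F2* −0.59, *TFDP2* −0.53). Of 18 E2F-driven genes of DNA replication, 0, 3, and 8 fell in HT29, HCT116, and SW480, with none higher. *MCM2*, a subunit of the replicative helicase, was among them in HCT116 (−0.45) and SW480 (−0.54), as was *MCM7* (−0.45) in SW480. Of 13 genes of G2 and mitosis, *MYBL2* fell in HT29 (−0.63), *CDK1* rose in HCT116 (0.39), and 7 fell in SW480, among them *MYBL2* (−1.05) and *CDC20* (−0.77). The E2F-driven genes had a median log2 fold change of −0.19 in HT29, −0.23 in HCT116, and −0.19 in SW480. For G2 and mitosis the medians were −0.54, 0.10, and −0.52, in the same order, beside 0.03, −0.01, and −0.0042 for all genes.

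Among genes upstream of the members, a list of 20 with p53 and its targets other than *CDKN1A* had 0 changes in HT29 and 2 falls in HCT116 (*TIGAR* −0.92, *SESN1* −0.75). In SW480, 19 were tested, with 6 rises and 4 falls, and *GDF15*, a stress cytokine, rose by 1.91 and *SESN2* by 0.97. Over all genes, 26.1% rose and 22.1% fell in SW480, and 8.05% and 5.93% in HCT116. Of 8 genes of the TGF-β arm that leads to *CDKN2B*, *TGFBI* fell in HT29 (−4.33). In HCT116, *SMAD3*, which carries the TGF-β signal, rose by 2.11 from 1430 ± 103 to 6270 ± 1292, and *SMAD7*, an inhibitor of the pathway, fell by 2.35 on the log2 scale. In SW480, 4 rose and 2 fell, with *SMAD7* down by 1.72.

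Of 12 repressors of the INK4 locus, 11 tested in HT29 and HCT116, 0 changed in HT29, 2 fell in HCT116 (*TBX3* −1.13, *KDM2B* −0.41), and 5 rose and 3 fell in SW480 (*ID1* 1.73, *TBX3* −0.72). For this and the next 2 lists, the shares over all genes in SW480 were 26.1% higher and 22.1% lower. Of 11 genes for the transcription and turnover of D-type cyclins and p27, 0 changed in HT29, *FOXO1* rose and *SKP2* fell in HCT116, and 5 fell in SW480, with *FOXO1* (−0.89) and *FBXO31* (−0.78), an F-box protein for cyclin D1, having the largest changes. Of 12 senescence-associated genes, 9 were tested in SW480, where 4 rose and 5 fell. The largest changes were rises of *MMP1* (2.94) and *IGFBP3* (2.27), and the median log2 fold change of the 9 was −0.29. Of the 6 tested in HCT116, 1 rose (*HMGB2*, 0.32), and of the 6 tested in HT29 none changed. Genes were counted without regard to the direction they take in senescence, so that these counts are no measure of it.

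Most tested target genes of WNT/β-CATENIN fell in each line (2 of 3 in HT29, 3 of 4 in HCT116, and 5 of 5 in SW480, *CTNNB1* itself left out). Over all genes, 0.476%, 5.93%, and 22.1% fell, in the same order. Of 3 markers of other cell types tested in SW480, 2 rose and 0 fell, beside 26.1% and 22.1% of all genes. *CD14* rose from 37.4 ± 6.92 to 172 ± 28.4 and *VWF* from 20.2 ± 8.69 to 161 ± 54.5 in SW480 KO, while *COL3A1*, *CD3E*, *DCN*, and *PTPRC* had means of at most 3.65 in either genotype. *COL1A1* stood at 172 ± 81.2 in WT and 132 ± 12.3 in KO. The summed level of the 7 markers ranged from 153 to 353 in SW480 WT and from 392 to 543 in SW480 KO. The intestinal transcription factor *CDX2* (−3.49) and *EPCAM* (−0.99) fell. The part of these in the SW480 results was not tested.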

How the data were processed

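RNA was measured by paired-end sequencing of 24 libraries from HT29, HCT116, and SW480 clones, prepared with a kit that does not mark strand. According to the study's methods and processing notes, reads were aligned to GRCh37 with STAR 2.7.5b, counted per gene with featureCounts 2.0.1, and normalised with DESeq2 (Galaxy release 2.11.40.6). The annotation release and the strand setting of the counting were not given in the sources used here. The deposited values are a signal: counts that the authors divided by a size factor per library. Dividing each value by what 1 read is worth gave whole reads for 100% of values (tolerance 0.01 reads), although in 2 libraries, HT29 KO 28A and SW480 WT 4A, 1 read was worth so nearly 1 that whole reads could not be told from rounding. The libraries had 22297049 to 29068378 reads each (median 27486225). Counting error was largest for *CCND2* in HCT116 and for *CDKN1C*, which had as few as 9 reads in HT29 KO and 24 in SW480 KO, and where 0 reads were found the limit was set at 3 reads per library, which covers counting error only. Tables holding the authors' own comparisons were not used.

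The 10 members and all gene lists were chosen with earlier results of these data known. KO was compared with WT within each line with limma 3.58.1 (R 4.3.3; mean-variance trend and robust variances) on log2(value + 1), keeping genes that reached a value of 10 in 4 or more libraries, with Benjamini-Hochberg adjustment. Fold changes are on this scale, which understates changes of low genes. WT levels and KO effects were compared between lines in 1 fit of all 24 libraries. Clone contrasts used the spread between rounds. The lists were G1 kinases, E and A cyclins and their activator, the remaining INK4 inhibitor, pocket proteins with E2F and DP factors, E2F-driven S phase genes, G2 and mitosis genes, p53 and its targets, turnover and transcription of D-type cyclins and p27, the TGF-β arm upstream of *CDKN2B*, repressors of the INK4 locus, senescence-associated genes, a WNT activity check, epithelial markers, and markers of non-epithelial cells. Of each list, at most the 2 changed genes with the largest absolute log2 fold change were named per line, together with tested genes within 100 kb of a member and, for each changed member, the 2 genes with the highest Pearson r over 12 clone means. Some genes that this rule names are not reported here.

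Alternatives were DESeq2 1.42.0 and edgeR 4.0.16 (TMM and RLE) on the recovered reads, TMM scaling, the clones' reads summed, clone as a random effect, round as a replicate block, pseudocounts of 0.1 and 5, other filters, WT libraries alone, and each library or clone left out. The values of single KO clones and the clone effect combined with the round block were added after seeing the data. Fits were tested on simulated data. For each clone, the log2 difference between rounds A and B was taken per gene and correlated between clones over genes. Rounds were taken to pair libraries where this correlation exceeded 0.1 for all 6 clone pairs of a line. That held in HCT116 (0.182 to 0.374) and not in HT29 or SW480. Exon lengths and overlaps came from GENCODE on GRCh37. Tables were handled with Python 3.11.15 and pandas 2.3.3, and figures drawn with matplotlib 3.10.9.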

Additional observations from a re-analysis of the deposited data

Results flagged for a closer look

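Of 58 groups of 4 libraries examined, 3 held a library far from the other 3 by Dixon's criterion. Chance alone meets it in about 1 in 20 groups of independent normal values, which rounds of the same clones are not. *CCND2* counted 5.35 (5 reads) in HCT116 KO 47A, with 0 in the other HCT116 KO libraries. Beside values of 0, any count meets the criterion, so that this flag carries no weight. *CDKN1C* counted 79.8 in HCT116 WT 4A, against 55.7, 58.2, and 58.1 in the other WT libraries. *CDKN2A* counted 3529 in HT29 WT 11A, against 5448, 5797, and 5790.

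KO effects that differed between lines were those of *CCND1* (1.14), *CDKN1B* (0.83), and *CDKN2C* (1.41) in HCT116 over HT29. Others were *CDKN2A* (1.29) in SW480 over HT29, and *CCND2* (2.62), *CDKN1B* (−0.97), and *CDKN1C* (−2.11) in SW480 over HCT116. As given above, none of these passed the test with the clones' reads summed. The *CCND2* call carries no weight of its own, because it passed the filter only through SW480.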

How the results depend on the processing

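Of 9 KO changes of members, 4 kept their call under all alternatives run: *CDKN2C* in HCT116 and *CDKN1C*, *CDKN2A*, and *CDKN2B* in SW480. DESeq2 called 2 members in HT29 and 4 in HCT116, where *CDK6* and *CDKN2B* were added. With the clones' reads summed, 1 member was called in HCT116, 3 in SW480, and 0 KO effects differed between any lines, a setting with fewer samples. Clone as a random effect left 1 difference between SW480 and HCT116 and 0 in the other pairs, the filter of at least 10 in every library left 1 between SW480 and HCT116, and a pseudocount of 5 gave 2 between SW480 and HT29. The cause was not tested. Leaving out libraries or clones gave 0 to 2 changed members in HT29, 2 to 3 in HCT116, and 4 to 9 in SW480, and 0 to 5, 0 to 4, and 1 to 4 differing effects between HCT116 and HT29, SW480 and HT29, and SW480 and HCT116. Without HT29 KO 28 *CCND1* was called, without KO 38 *CCND3*, and without WT 40 *CDKN1A* and *CDKN2B*.

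Signs turned, for values that were not called, only when a library or clone was left out. The lowest and highest log2 fold changes in HCT116 were −0.15 and 0.47 for *CCND1*, −0.40 and 0.23 for *CCND3*, −0.58 and 0.99 for *CDKN1A*, −0.61 and 0.12 for *CDKN1C*, −0.17 and 1.06 for *CDKN2A*, and −0.034 and 1.64 for *CDKN2B*. In HT29 they were −0.33 and 0.80 for *CCND3*, −0.45 and 0.10 for *CDKN1B*, −0.043 and 0.36 for *CDKN2A*, and −0.51 and 0.23 for *CDKN2C*.

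With round as a replicate block, 0, 2, and 7 members were changed in HT29, HCT116, and SW480, as without it, and no count of members moved. Over all genes, 382, 2154, and 7857 were changed in these lines. The block gave 223, 2457, and 7425, DESeq2 gave 1238 in HT29, and clone as a random effect gave 121, 1067, and 5615. Summed clones gave 0, 407, and 3905.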

Other observations

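Genes within 100 kb of a member were read beside it. *FGF19*, a growth factor gene 43764 bases from *CCND1*, fell in SW480 KO from 3940 to 58.2 (log2 fold change −6.70, adjusted p = 0.000104 in limma). Its means were also lower in KO in the other lines, without passing the test. They were 4557 in WT and 825 in KO in HT29 (−5.02, adjusted p = 0.189), and 383 and 141 in HCT116 (−1.56, adjusted p = 0.0721). Near *CDKN1C*, in an imprinted domain, *KCNQ1DN* fell in SW480 from 31.2 to 3.54 (−2.93), while *SLC22A18* (1.75) and *PHLDA2* (1.08) rose. *KCNQ1DN* passed the filter only through its WT libraries, where it is high, so that its call carries no weight of its own. In HCT116, where *CDKN1C* did not pass the test, *KCNQ1* (1.54), *SLC22A18AS* (1.32), and *SLC22A18* (1.20) rose. *APOLD1* rose by 0.95 near *CDKN1B* in HCT116, *CREBL2* by 0.66 near *CDKN1B* in SW480, and *C6orf132* by 0.87 near *CCND3* in SW480. *SRSF3* near *CDKN1A* fell by 0.28 on the log2 scale in SW480, and *TIGAR* lies 2410 bases from *CCND2* (HCT116, −0.92).

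Over the 12 clone means, which share lines and rounds, the genes most like *CCND1* were *FADS2* (Pearson r 0.983) and ENSG00000270055 (0.982), and those most like *CCND2* were *LINC02863* (0.992) and *NAV2-AS6* (0.989). For *CDK6* they were *HOXC13* (0.871) and *ZNF532* (0.821). *COPB1* (0.944) was the most like *CDKN2A*. The pairs were, for *CDKN2B*, *ATP6V0E1* (0.922) and *AHNAK* (0.919), and, for *CDKN2C*, *GOLGA4-AS1* (0.969) and *ATP6V0E2-AS1* (0.955). For *CDKN1B* they were *ZNF433-AS1* (0.880) and *CHD3* (0.872), and for *CDKN1C* the pseudogenes *HMGB3P6* (0.940) and *ACTG1P25* (0.925), whose reads may be shared with their parent genes.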
